A study of Homo sapiens with 6 samples.

Results

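The 33 genes described here encode the route by which pyruvate enters the mitochondrion and is burned in the citrate cycle. They comprise the pyruvate carrier, the pyruvate dehydrogenase complex with its kinases and phosphatases, citrate cycle enzymes, enzymes of the malate-aspartate shuttle and enzymes through which carbon enters or leaves the cycle. They were picked by gene symbol from the deposited count table, and all 33 were found among its 25336 genes. RNA was sequenced from THP-1, an established human monocytic leukaemia line, in 3 libraries labelled pristimerin and 3 labelled control. Pristimerin is a plant quinone-methide triterpenoid, and the series title names it together with erastin, a trigger of ferroptosis, in which iron drives lipid peroxidation until cells die. The labels give neither dose nor exposure time and do not say whether any cells also received erastin or what the control cells received. All 6 libraries come from 1 cell line. No label states that replicates were grown apart, so each p-value reflects the scatter among these 6 libraries, possibly a technical one.

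Pyruvate from glycolysis crosses the inner mitochondrial membrane through a carrier made of MPC1 and MPC2. The pyruvate dehydrogenase complex then turns it into acetyl-CoA, a step that the PDK kinases switch off by phosphorylation and the PDP phosphatases switch on again. Citrate synthase joins acetyl-CoA to oxaloacetate, and the cycle releases carbon dioxide while it loads electron carriers for respiration. Proliferating leukaemia cells also use the cycle as a source of citrate for lipid synthesis and of aspartate for nucleotides.

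Total counts ran between 24323627 and 30568593 in the pristimerin libraries and between 19057219 and 27880414 in the control libraries. Of 10 markers of monocytic leukaemia cells, 8 averaged at least 1 CPM (read count relative to library size, scaled by TMM). The list summed to 2194 to 2229 CPM in the pristimerin and 1972 to 2133 CPM in the control libraries. Most of that was LYZ, lysozyme, at 1574 to 1601 CPM in the pristimerin and 1367 to 1547 CPM in the control libraries (log2 fold change 0.15, not called). Of the 10 markers 0 rose and 2 fell. ITGAM, an integrin of mature myeloid cells, had 5.00 to 5.94 CPM in the pristimerin and 9.01 to 9.03 CPM in the control libraries (-0.71, SE 0.11, adjusted p = 0.00014 in edgeR's test). FCGR1A, an Fc receptor with near-identical copies and so of uncertain count, had 34.6 to 37.2 CPM in the pristimerin and 39.7 to 47.5 CPM in the control libraries (-0.33, SE 0.08, adjusted p = 0.0059). The part of these marker differences in the values of the members was not tested. The macrophage marker CD68 stayed under 1 CPM in every library. The 3 epithelial and fibroblast markers analysed summed to 0.0333 to 0.254 CPM in the pristimerin and 0.206 to 0.330 CPM in the control libraries. A second principal component with 13.1% of the variance set the libraries numbered 2 of both groups apart from the other 4.

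Most of these genes were modestly higher in the pristimerin libraries, and one, the kinase gene PDK2, was lower. In edgeR's quasi-likelihood test with an adjusted p under 0.05 over all genes, 20 of the 33 members rose, 1 fell and 12 were not called. Among all 15305 genes tested, 14.5% rose, 15.1% fell and 29.6% were called in either direction. Of the members, 60.6% rose and 3.03% fell. The members lie on 17 chromosomes, and the annotation in the deposited table puts 19 of them in the KEGG citrate cycle. The median log2 fold change, pristimerin over control, was 0.21 over the members and -0.01 over all genes tested. The members are more abundant than most genes, with a median of 61.1 CPM against 19.3 CPM, and increases were more frequent among abundant genes. Of the 26 members with a mean of at least 20 CPM, 18 rose and 0 fell, a share of 69.2% beside 23.6% of the 7546 genes tested at such levels. With both libraries numbered 2 left out, 22 members rose and 2 fell. The changes were small: the called increases lay between 15.1% and 44.7%, and 0 members changed by 2-fold. In bulk RNA, a smaller share of cells carrying a transcript and less of it per cell cannot be told apart.

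The groups' CPM ranges did not overlap for 25 of the 33 members, with pristimerin above control for 23 and below it for 2. Over all genes tested, the ranges were separate with pristimerin above in 21% and below in 22.3%. Of the 7546 genes tested with a mean of at least 20 CPM, pristimerin was above without overlap in 2433 and below in 1213. Of the 26 members at such levels, it was above in 21 and below in 0. The count of members that rose depended on the scaling: it was 13 with upper-quartile scaling, 12 with plain library totals and 9 with limma on log2(FPKM + 1), where the tool and the genes tested also differ. Over all genes, the 2216 that rose and 2313 that fell became 1523 and 3052 with upper-quartile scaling and 1392 and 3219 with library totals. Library totals ended the call of MPC2, DLD, PDP2, IDH3B, SUCLG1, FH, MDH2 and GOT2, and both FPKM scales also ended those of OGDH, SUCLG2 and SUCLA2. No called member changed its direction under any of the 18 alternatives, and 10 of the 21 kept their call under all of those in which they were tested: CS, DLAT, GLUD1, MPC1, PDHA1, PDHB, IDH3A, MDH1, GOT1 and PDK2.

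**Figure D1:**
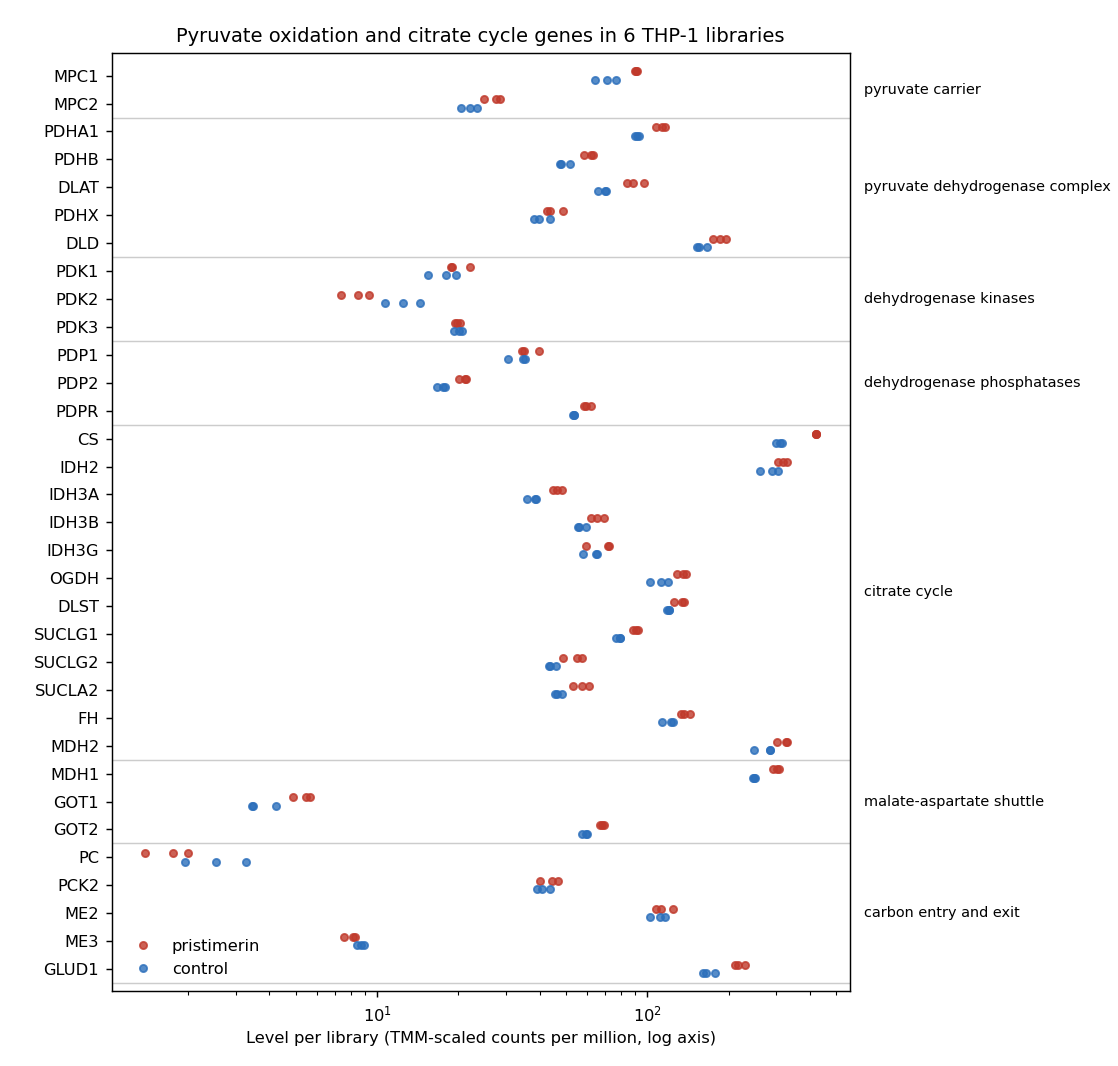
Level of each member in every library, in CPM scaled by TMM, on a log axis, with pristimerin libraries in red and control libraries in blue, grouped by role. The pristimerin points lie above the control points without overlap for 23 of 33 genes, and below them for PDK2 and ME3.

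As examples, the 250 bases before the RefSeq transcription start (build GRCh38.p14) are printed for 3 members that rose and for PDK2, the only member called lower. They run 5′ to 3′ on the gene's strand, and capitals mark CCAAT boxes, read as CCAAT or as its reverse complement. CS covers chr12:56300331-56300580 on the minus strand, MPC1 chr6:166382941-166383190 on the minus strand, GOT1 chr10:99430625-99430874 on the minus strand, and PDK2 chr17:50094487-50094736 on the plus strand.
CS: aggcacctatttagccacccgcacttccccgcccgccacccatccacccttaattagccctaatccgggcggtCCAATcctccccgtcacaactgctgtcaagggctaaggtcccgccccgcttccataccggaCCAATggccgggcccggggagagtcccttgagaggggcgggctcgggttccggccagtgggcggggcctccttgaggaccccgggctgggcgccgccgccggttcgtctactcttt
MPC1: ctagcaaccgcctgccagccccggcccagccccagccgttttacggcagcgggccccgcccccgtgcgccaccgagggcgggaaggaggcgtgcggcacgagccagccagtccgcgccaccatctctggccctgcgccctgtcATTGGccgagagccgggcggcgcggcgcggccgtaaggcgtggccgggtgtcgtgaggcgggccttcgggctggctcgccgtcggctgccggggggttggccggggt
GOT1: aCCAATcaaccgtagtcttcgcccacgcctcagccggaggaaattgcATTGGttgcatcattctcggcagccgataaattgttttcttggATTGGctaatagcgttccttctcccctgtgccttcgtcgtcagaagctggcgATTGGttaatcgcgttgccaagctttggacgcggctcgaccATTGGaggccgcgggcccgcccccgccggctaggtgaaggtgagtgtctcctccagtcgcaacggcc
PDK2: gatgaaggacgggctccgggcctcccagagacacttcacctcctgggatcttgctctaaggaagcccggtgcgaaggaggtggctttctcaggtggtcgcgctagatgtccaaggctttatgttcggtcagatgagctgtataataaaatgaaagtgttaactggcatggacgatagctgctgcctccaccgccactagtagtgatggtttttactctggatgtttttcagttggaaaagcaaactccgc
The GOT1 window held 5 such boxes, the CS window 2 and the MPC1 window 1, while no box was found in the PDK2 window. These windows were picked and do not stand for the list. In promoters of 300 bases, no box was found for DLAT and GLUD1, which also rose. PC, with the lowest log2 fold change of the members (-0.59, not called), did have the box.

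Promoters of 300 bases, reaching 50 bases past the start, were matched by symbol for 31 of the 33 members (not for OGDH and PDP1) and for 11017 of the genes tested. CCAAT, the box bound by the factor NF-Y, was present on either strand in 21 of the 31, or 67.7%, against 36.9% of all promoters. It was found in 12 of the 19 members that rose and in 9 of the 12 others. Other motifs, also searched on both strands, were present in shares nearer those of all promoters. The NRF1 motif, GCGC and TGCGC parted by any 1 base, was in 16.1% of member promoters and 11.8% of all. The E-box CACGTG was in 9.68% and 9.98%, and the antioxidant response core TGACNNNGC in 12.9% and 15.3%. The ERR site AAGGTCA (3.23% and 2.51%), the sterol element TCACNCCAC (3.23% and 1.16%) and the TATA box TATAAA (6.45% and 5.63%) were each found in at most 2 member promoters. AAGGTCA, read on the other strand, can lie inside TGACNNNGC, and no other pair of these motifs nests. Member promoters had a median GC content of 67.3%, with a range of 36.3% to 77.3%, beside 65% for all. A match is only a run of letters, and no binding was measured.

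Both subunits of the pyruvate carrier rose. MPC1 (ENSG00000060762, hg38 chromosome 6, 166364919 to 166383013, minus strand) had 89.8, 91.2 and 91.1 CPM in the pristimerin libraries, against 64.0, 76.4 and 71.1 CPM in the control libraries. CPM values are scaled by TMM, edgeR's correction for library composition, and replicates are given in the order 1, 2 and 3. The pristimerin libraries were tightly grouped and all lay above the highest control. The log2 fold change of MPC1 was 0.36 (SE 0.07, adjusted p = 0.00098 in edgeR's test). Its partner MPC2 averaged 27.0 ± 1.85 CPM in pristimerin and 21.95 ± 1.45 CPM in control libraries (SD, n = 3 each). Its log2 fold change was 0.29 (SE 0.09, adjusted p = 0.021). The call of MPC2 was lost without control replicate 3 (0.27) and without pristimerin replicate 2 (0.26). MPC2 overlaps DCAF6 on the opposite strand, which had 44.1 CPM over the 6 libraries beside 24.4 CPM for MPC2 and a log2 fold change of 0.29. Whether the authors' counting used the strand is not given in the sources used here, so reads of such a pair may have been mixed, and the part of DCAF6 in the value of MPC2 was not tested.

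The catalytic core of the pyruvate dehydrogenase complex rose in 4 of 5 genes. PDHA1, which encodes the E1 alpha subunit that the kinases phosphorylate (hg38 chromosome X, 19343893 to 19361718, plus strand), had 113, 107 and 116 CPM in the pristimerin libraries, against 93.2, 89.7 and 91.9 CPM in the control libraries. PDHB, the E1 beta subunit (chromosome 3, 58427630 to 58433857, minus strand), had 58.2, 61.9 and 63.1 CPM in pristimerin, against 48.0, 51.9 and 47.4 CPM in control libraries. For both genes every pristimerin library exceeded every control library, and their log2 fold changes were close, 0.29 (SE 0.06, adjusted p = 0.0019) for PDHA1 and 0.31 (SE 0.07, adjusted p = 0.0028) for PDHB. DLAT, the E2 acetyltransferase that forms the core (chromosome 11, 112025408 to 112064404, plus strand), had 84.3, 97.4 and 88.3 CPM in pristimerin, against 65.6, 70.0 and 70.4 CPM in control libraries. At 0.39 (SE 0.07, adjusted p = 0.0005), DLAT had the largest log2 fold change of the complex. DLD, the E3 dehydrogenase that several 2-oxoacid complexes share, averaged 186 ± 10.2 CPM in pristimerin and 158 ± 6.79 CPM in control libraries (SD, n = 3 each; 0.23, SE 0.06, adjusted p = 0.011). PDHX, the protein that ties E3 to the core, measured 45.0 ± 3.17 and 40.4 ± 2.79 CPM (SD, n = 3 each) in pristimerin and control libraries, with overlapping ranges, and did not pass the test (0.15, SE 0.08, adjusted p = 0.16). PDHX overlaps APIP on the opposite strand (24.2 CPM).

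Per length, in the deposited FPKM, which divide fragments by gene length and library total, PDHA1 exceeded PDHB in every library, with a ratio of 1.75 ± 0.0993 in pristimerin and 1.78 ± 0.116 in control libraries (SD, n = 3 each). The FPKM of DLD was 3.05 ± 0.0682 times that of DLAT in pristimerin and 3.41 ± 0.123 times in control libraries, and these ranges were separate. This difference between the genes was not tested. The authors' FPKM divides by a length that equals the union of a gene's GENCODE 29 exons within 5% for 25 of the 33 members, so long alternative exons lower the FPKM of a gene. The length used was over 1.5 times that union for FH, GLUD1, PDK3 and DLAT, and levels per length of these 4 are understated against the other genes if the GENCODE 29 exons hold. For GOT1 the length was 0.72 of that union, and its level per length is overstated on the same condition.

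Of the 3 kinase genes that inactivate the complex, 0 rose and PDK2 fell. PDK2 (ENSG00000005882, hg38 chromosome 17, 50094737 to 50112152, plus strand) had 8.49, 7.37 and 9.32 CPM in the pristimerin libraries, against 14.5, 10.7 and 12.4 CPM in the control libraries. The highest pristimerin library lay below the lowest control library. PDK2 fell by 0.58 on the log2 scale (SE 0.12, adjusted p = 0.0021 in edgeR's test), to 0.669 of its control level, and fell by 0.42 to 0.69 over the alternatives. PDK1, the isoform known as a target of the hypoxia factor HIF-1, measured 20.0 ± 1.90 CPM in pristimerin and 17.7 ± 2.12 CPM in control libraries (SD, n = 3 each; log2 fold change 0.18, SE 0.11, adjusted p = 0.21). PDK3 measured 19.8 ± 0.445 CPM in pristimerin and 20.0 ± 0.730 CPM in control libraries (SD, n = 3 each; -0.01, SE 0.09), a value whose sign turned under DESeq2 size factors. Of the summed FPKM of these 3 kinases, PDK2 made up 39.5%, 33.7% and 41.4% in the pristimerin libraries, against 55.3%, 44.9% and 47.9% in the control libraries. The share of PDK1 was 33.5% ± 3.34 in pristimerin and 25.8% ± 3.57 in control libraries, and that of PDK3 28.3% ± 0.727 and 24.8% ± 2.18 (SD, n = 3 each). The shares of all 3 isoforms had separate ranges in the groups. They are parts of 1 sum, so a lower share of PDK2 raises the others. In CPM, the ranges of PDK1 and of PDK3 overlapped between the groups. The difference in shares was not tested, and the long gene length used for PDK3 lowers its share in all libraries alike.

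PDK4, the remaining kinase of the family and not a member, is named here after its values were seen. It had 0.466, 0.540 and 0.466 CPM in the pristimerin libraries, against 3.01, 2.92 and 3.77 CPM in the control libraries, which rested on 11 to 14 counts and on 73 to 84 counts. The groups were far apart although the gene was weakly expressed. PDK4 fell by 2.70 on the log2 scale (SE 0.23, adjusted p = 2.5e-07), and by 0.64 on log2(FPKM + 1), a scale that understates the change of low genes.

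Of the phosphatase genes that restore activity, PDP2 rose and the others were not called. PDP2, a catalytic subunit, averaged 20.8 ± 0.667 CPM in pristimerin and 17.4 ± 0.642 CPM in control libraries (SD, n = 3 each). Its log2 fold change was 0.26 (SE 0.09, adjusted p = 0.035). This call was lost without control replicate 1 (0.23) or 3 (0.28) and without pristimerin replicate 1 (0.27) or 3 (0.26). PDP1, the other catalytic subunit, measured 36.4 ± 2.79 CPM in pristimerin and 33.5 ± 2.56 CPM in control libraries (SD, n = 3 each; 0.12, SE 0.09, adjusted p = 0.32). PDPR, the regulatory subunit, had 59.2, 58.5 and 61.8 CPM in pristimerin, against 53.5, 52.9 and 53.4 CPM in control libraries. Its ranges were separate, but it missed the threshold (0.17, SE 0.07, adjusted p = 0.061).

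**Figure D2:**
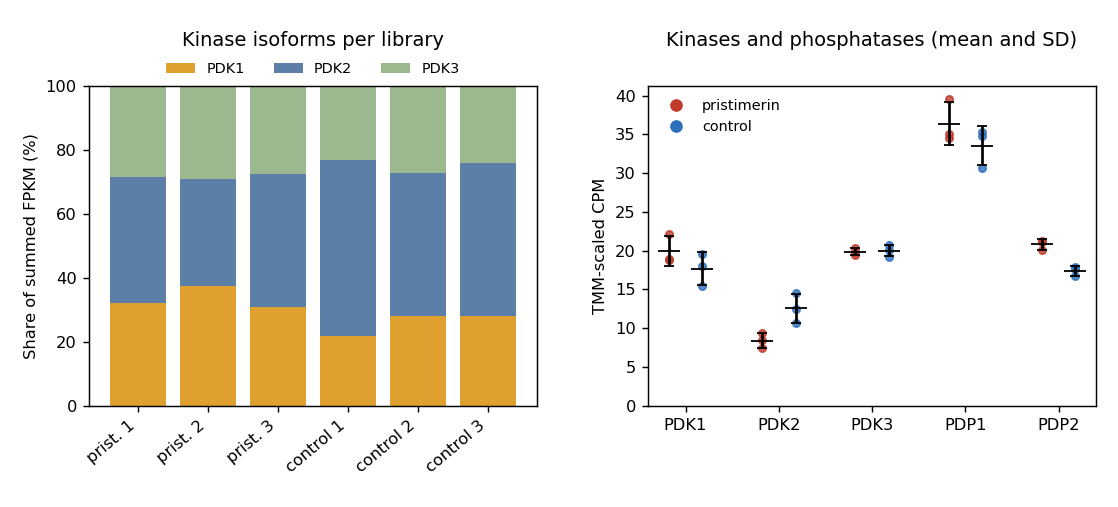
Left, share of each kinase isoform in the summed FPKM of PDK1, PDK2 and PDK3 in percent, in the 3 pristimerin libraries and the 3 control libraries. Right, TMM-scaled CPM of these kinases and the catalytic phosphatase subunits per library (points), with the mean and SD of each group (pristimerin left of control). PDK2 takes 33.7% to 41.4% in the pristimerin and 44.9% to 55.3% in the control libraries, and PDP2 is separate between the groups in the other direction.

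Of the 12 citrate cycle genes, 9 rose, 0 fell and 3 were not called. CS, citrate synthase, the entry enzyme (ENSG00000062485, hg38 chromosome 12, 56271699 to 56300391, minus strand), had 421, 421 and 421 CPM in the pristimerin libraries, against 310, 315 and 299 CPM in the control libraries. The pristimerin values differed by less than 1 CPM among themselves and exceeded every control value by over 100 CPM. With a log2 fold change of 0.45 (SE 0.05, adjusted p = 1.1e-05), CS had the lowest adjusted p of the members. Its FPKM was 0.578 ± 0.0210 times that of IDH2 in pristimerin and 0.472 ± 0.0446 times in control libraries (SD, n = 3 each), with separate ranges. IDH2, the NADP-linked mitochondrial isocitrate dehydrogenase, had the highest FPKM of the members, with means of 111 in pristimerin and 105 in control libraries. IDH2 did not pass the test (log2 fold change 0.15, SE 0.06, adjusted p = 0.083).

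The NAD-linked isocitrate dehydrogenase, a rate-controlling step of the cycle, is built from alpha, beta and gamma subunits. IDH3A, the catalytic alpha subunit (chromosome 15, 78131498 to 78171945, plus strand), had 46.4, 44.7 and 48.3 CPM in pristimerin, against 35.9, 38.8 and 38.4 CPM in control libraries. These ranges were separate, with a log2 fold change of 0.30 (SE 0.07, adjusted p = 0.0048). IDH3B averaged 65.4 ± 3.83 CPM in pristimerin and 56.9 ± 2.26 CPM in control libraries (SD, n = 3 each; 0.20, SE 0.07, adjusted p = 0.036). The call of IDH3B was lost without control replicate 1 (0.19) or 2 (0.18) and without pristimerin replicate 1 (0.23) or 3 (0.18). IDH3G measured 67.6 ± 7.34 CPM in pristimerin and 62.5 ± 4.13 CPM in control libraries (SD, n = 3 each) and was not called (0.11, SE 0.08, adjusted p = 0.32). It overlaps the more abundant SSR4 on the opposite strand (109 CPM beside 65.0 CPM, log2 fold change of SSR4 -0.20), and the part of SSR4 in its value was not tested.

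Of the 5 genes from 2-oxoglutarate to succinate, 4 rose. OGDH, the E1 subunit of the 2-oxoglutarate dehydrogenase complex (chromosome 7, 44606572 to 44709066, plus strand), had 139, 129 and 135 CPM in pristimerin, against 119, 102 and 112 CPM in control libraries (log2 fold change 0.27, SE 0.07, adjusted p = 0.0051). DLST, the E2 subunit of that complex, averaged 132 ± 5.99 CPM in pristimerin and 119 ± 1.27 CPM in control libraries (SD, n = 3 each). Its ranges were separate, but DLST was not called (0.14, SE 0.06, adjusted p = 0.080). SUCLG1, the alpha subunit common to both succinyl-CoA ligases (chromosome 2, 84423528 to 84460045, minus strand), had 88.3, 91.2 and 92.7 CPM in pristimerin, against 79.4, 79.1 and 76.8 CPM in control libraries. It rose by a log2 fold change of 0.21 (SE 0.06, adjusted p = 0.016), a call lost without control replicate 3 (0.21) and without pristimerin replicate 3 (0.21). The beta subunits set the nucleotide made, GTP with SUCLG2 and ATP with SUCLA2, and both rose. SUCLG2 averaged 53.7 ± 4.64 CPM in pristimerin and 44.3 ± 1.42 CPM in control libraries (0.28, SE 0.08, adjusted p = 0.011), and SUCLA2 57.3 ± 3.86 and 46.8 ± 1.44 CPM (0.29, SE 0.07, adjusted p = 0.0060; SD, n = 3 each). SUCLG2 made up 72.9% ± 0.489 of the FPKM of both beta genes in pristimerin and 73.1% ± 0.299 in control libraries (SD, n = 3 each), with overlapping ranges.

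FH, fumarate hydratase (chromosome 1, 241497511 to 241519799, minus strand), had 137, 133 and 144 CPM in pristimerin, against 122, 124 and 114 CPM in control libraries. It rose by a log2 fold change of 0.20 (SE 0.06, adjusted p = 0.022), a call lost without control replicate 3 (0.18) and without pristimerin replicate 3 (0.19). MDH2, the mitochondrial malate dehydrogenase that closes the cycle (chromosome 7, 76048051 to 76067508, plus strand), had 327, 303 and 329 CPM in pristimerin, against 284, 248 and 286 CPM in control libraries. Replicate 2 was the lowest library of MDH2 in both groups, and the groups did not overlap. The log2 fold change of MDH2 was 0.23 (SE 0.07, adjusted p = 0.015), not called without pristimerin replicate 3 (0.23). MDH2 had the second highest FPKM of the members, 85.7 ± 4.02 in pristimerin and 76.8 ± 5.61 in control libraries (SD, n = 3 each).

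**Figure D3:**
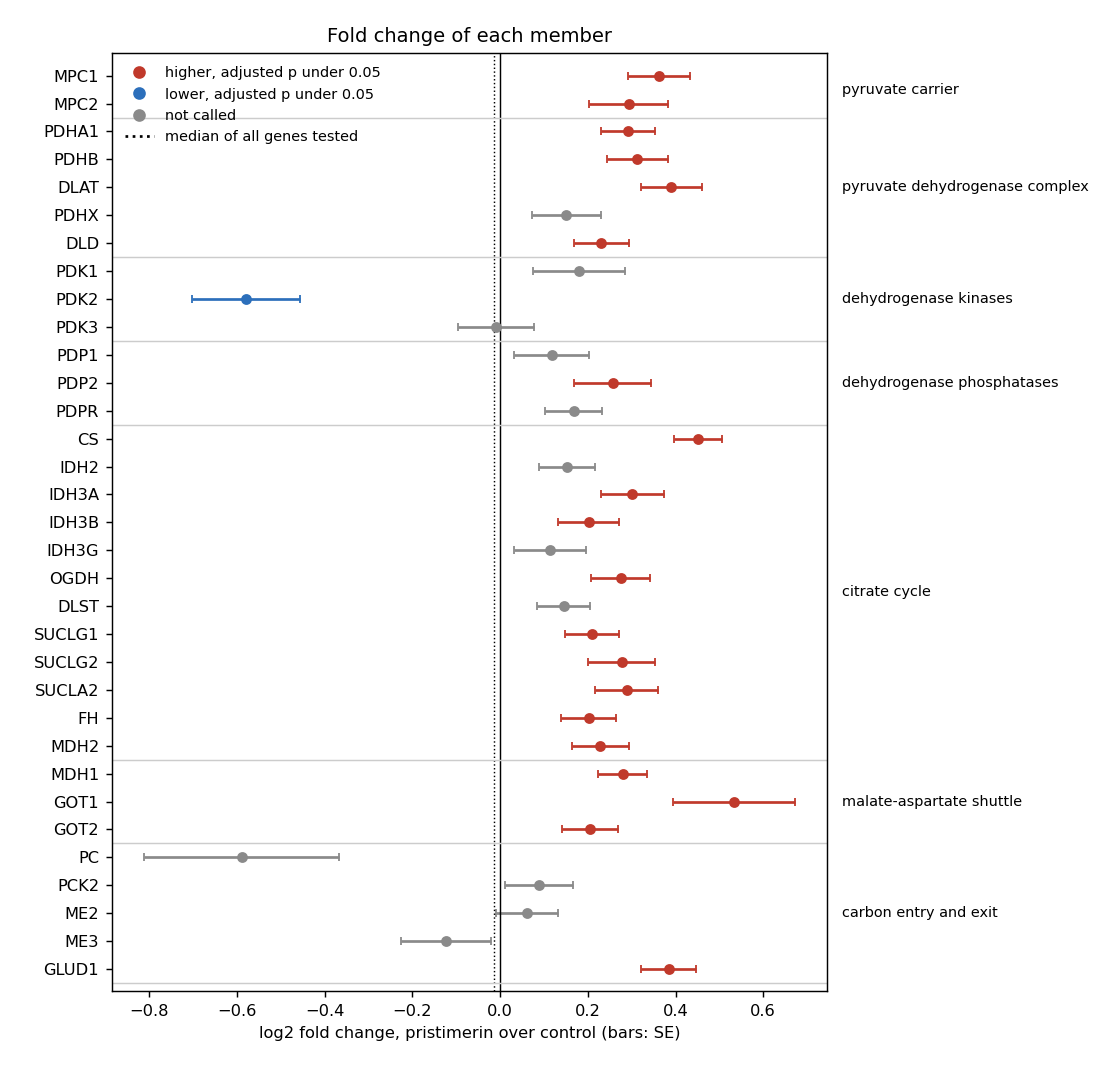
Log2 fold change of each member, pristimerin over control, from edgeR's quasi-likelihood fit, with the SE as bars and colour by call. The dotted line marks the median of all genes tested, -0.01. Of the 33 points, 20 are called higher, PDK2 is the one called lower, and 12 are not called.

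The 3 members grouped under the malate-aspartate shuttle, which moves reducing equivalents from cytosol to mitochondrion, all rose. They are not the whole shuttle. Of its carriers, which are not members, SLC25A12 rose (log2 fold change 0.36). SLC25A11 (-0.07, adjusted p = 0.57 in edgeR's test) and SLC25A13 (0.15, adjusted p = 0.2) were not called. GOT1, the cytosolic aspartate aminotransferase (ENSG00000120053, hg38 chromosome 10, 99396870 to 99430624, minus strand), had 5.63, 4.90 and 5.47 CPM in pristimerin, against 3.48, 3.44 and 4.23 CPM in control libraries. It was weakly expressed, with 127 to 169 counts in the pristimerin and 82 to 99 counts in the control libraries, and its groups did not overlap. With a log2 fold change of 0.53 (SE 0.14, adjusted p = 0.0083), GOT1 had the largest increase of the members. The mitochondrial GOT2 averaged 67.9 ± 1.00 CPM in pristimerin and 58.9 ± 1.31 CPM in control libraries (SD, n = 3 each; 0.20, SE 0.06, adjusted p = 0.023), a call lost without pristimerin replicate 1 (0.21). Per length, GOT1 made up 10.8% ± 0.673 of the FPKM of both aminotransferases in pristimerin and 8.88% ± 0.829 in control libraries (SD, n = 3 each), with separate ranges and no test of the difference. The short gene length used for GOT1 raises its share in all libraries alike. MDH1, the cytosolic malate dehydrogenase, averaged 301 ± 7.64 CPM in pristimerin and 248 ± 1.82 CPM in control libraries (SD, n = 3 each; 0.28, SE 0.06, adjusted p = 0.0012). The share of MDH1 in the FPKM of both malate dehydrogenases averaged 40.7% in pristimerin and 39.9% in control libraries, with overlapping ranges.

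Of the 5 genes for carbon entry and exit, 1 rose and 4 were not called. GLUD1, glutamate dehydrogenase, which feeds 2-oxoglutarate into the cycle (chromosome 10, 87050202 to 87094843, minus strand), had 212, 230 and 216 CPM in pristimerin, against 161, 178 and 165 CPM in control libraries. Every pristimerin library was above every control library, with a log2 fold change of 0.38 (SE 0.06, adjusted p = 0.00019). GLUD1 overlaps SHLD2 on the opposite strand, which had 60.1 CPM beside 193 CPM for GLUD1 and a log2 fold change of 0.39, and GENCODE 29 lists 5 pseudogenes named after GLUD1, so its value is uncertain. Pseudogenes of GOT2 (4), SUCLA2 (3), SUCLG2 (2), DLST, FH, ME2 and PDHA1 (1 each) are listed too, and how reads shared with them were counted is not given in the sources used here. PC, pyruvate carboxylase, which makes oxaloacetate from pyruvate (chromosome 11, 66848417 to 66958386, minus strand), had 1.76, 1.39 and 1.99 CPM in pristimerin, against 3.26, 1.95 and 2.53 CPM in control libraries. These ranges overlapped, and PC just missed the threshold (log2 fold change -0.59, SE 0.22, adjusted p = 0.054). It was called lower without control replicate 2 (-0.77), while the value shrank to -0.36 without control replicate 1 (adjusted p = 0.28) and to -0.46 without pristimerin replicate 2 (adjusted p = 0.18). PC was the least abundant member per length, at 0.229 ± 0.0402 FPKM in pristimerin and 0.362 ± 0.0921 FPKM in control libraries (SD, n = 3 each). PC rested on 36 to 53 counts in the pristimerin and 49 to 89 counts in the control libraries and overlaps LRFN4 on the opposite strand, which had 38.2 CPM beside 2.16 CPM for PC.

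PCK2, the mitochondrial phosphoenolpyruvate carboxykinase, measured 43.7 ± 3.33 CPM in pristimerin and 41.1 ± 2.28 CPM in control libraries (SD, n = 3 each; log2 fold change 0.09, SE 0.08, adjusted p = 0.42). ME2, the NAD-linked malic enzyme, measured 115 ± 8.55 CPM in pristimerin and 110 ± 7.33 CPM in control libraries (SD, n = 3 each; 0.06, SE 0.07, adjusted p = 0.55), and its sign turned with library totals. ME3, the NADP-linked mitochondrial malic enzyme, measured 7.97 ± 0.392 CPM in pristimerin and 8.69 ± 0.256 CPM in control libraries (SD, n = 3 each). The ME3 ranges were separate with pristimerin below control, but the gene was not called (-0.12, SE 0.10, adjusted p = 0.39).

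A list of 41 neighbouring genes was read in the same fit, of which 36 were tested. Among them 12 rose, 3 fell and 21 were not called, shares of 33.3% and 8.33%, and their median log2 fold change was 0.10. Over all genes tested, 14.5% rose and 15.1% fell. Of 9 other enzymes of the cycle and of citrate use, 5 rose and 0 fell. ACLY, which cleaves exported citrate to acetyl-CoA, averaged 423 ± 10.5 CPM in pristimerin and 289 ± 16.1 CPM in control libraries (SD, n = 3 each; 0.55, SE 0.06, adjusted p = 2.9e-06). SDHD, a membrane anchor of succinate dehydrogenase, rose by 0.42 (SE 0.08), and the cytosolic IDH1 by 0.37 (SE 0.06) on the log2 scale, while the SDHC anchor was not called (-0.09, SE 0.06). Of 7 metabolite carriers 3 rose, among them the citrate exporter SLC25A1 (0.44, SE 0.07, adjusted p = 0.00029), the glutamate carrier SLC25A22 (0.39, SE 0.09) and the aspartate-glutamate carrier SLC25A12 (0.36, SE 0.08). The call of SLC25A22 was lost on both log2 FPKM scales (0.28 on log2(FPKM + 1)).

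Of 9 genes for glutamine and pyruvate entry, 2 rose (22.2%) and 1 fell (11.1%), beside 14.5% and 15.1% of all genes tested. ME1, the cytosolic malic enzyme and a known NRF2 target, had 23.2, 26.9 and 23.2 CPM in pristimerin, against 52.7, 59.1 and 63.1 CPM in control libraries. Every pristimerin library held less ME1 than every control library, and ME1 fell by 1.25 on the log2 scale (SE 0.09, adjusted p = 1.3e-08). The mitochondrial ME2 and ME3 were not called, and the difference between these genes was not tested. LDHA, which turns pyruvate into lactate, averaged 1137 ± 20.3 CPM in pristimerin and 848 ± 39.3 CPM in control libraries (SD, n = 3 each; 0.42, SE 0.06, adjusted p = 2.8e-05). GPT2, the mitochondrial alanine aminotransferase, rose by 0.23 (SE 0.08, adjusted p = 0.046), a call lost without any one of 5 of the 6 libraries. In the list of lipoate and cofactor supply, the 1 that fell was PDK4. The branched-chain dehydrogenase genes and the 2-oxoadipate dehydrogenase DHTKD1 are sisters of the complexes above, and of 5 tested 1 rose and 1 fell. These are shares of 20% each, beside the 14.5% and 15.1% of all genes tested. DHTKD1 rose by 0.23 (SE 0.06, adjusted p = 0.011; not called with library totals, 0.16), while the branched-chain phosphatase gene PPM1K fell by 0.29 (SE 0.10, adjusted p = 0.034), a call lost without control replicate 3 or pristimerin replicate 1 or 3. The kinase and E2 genes of the branched-chain complex, BCKDK and DBT, each had a log2 fold change within 0.01 of 0.

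**Figure D4:**
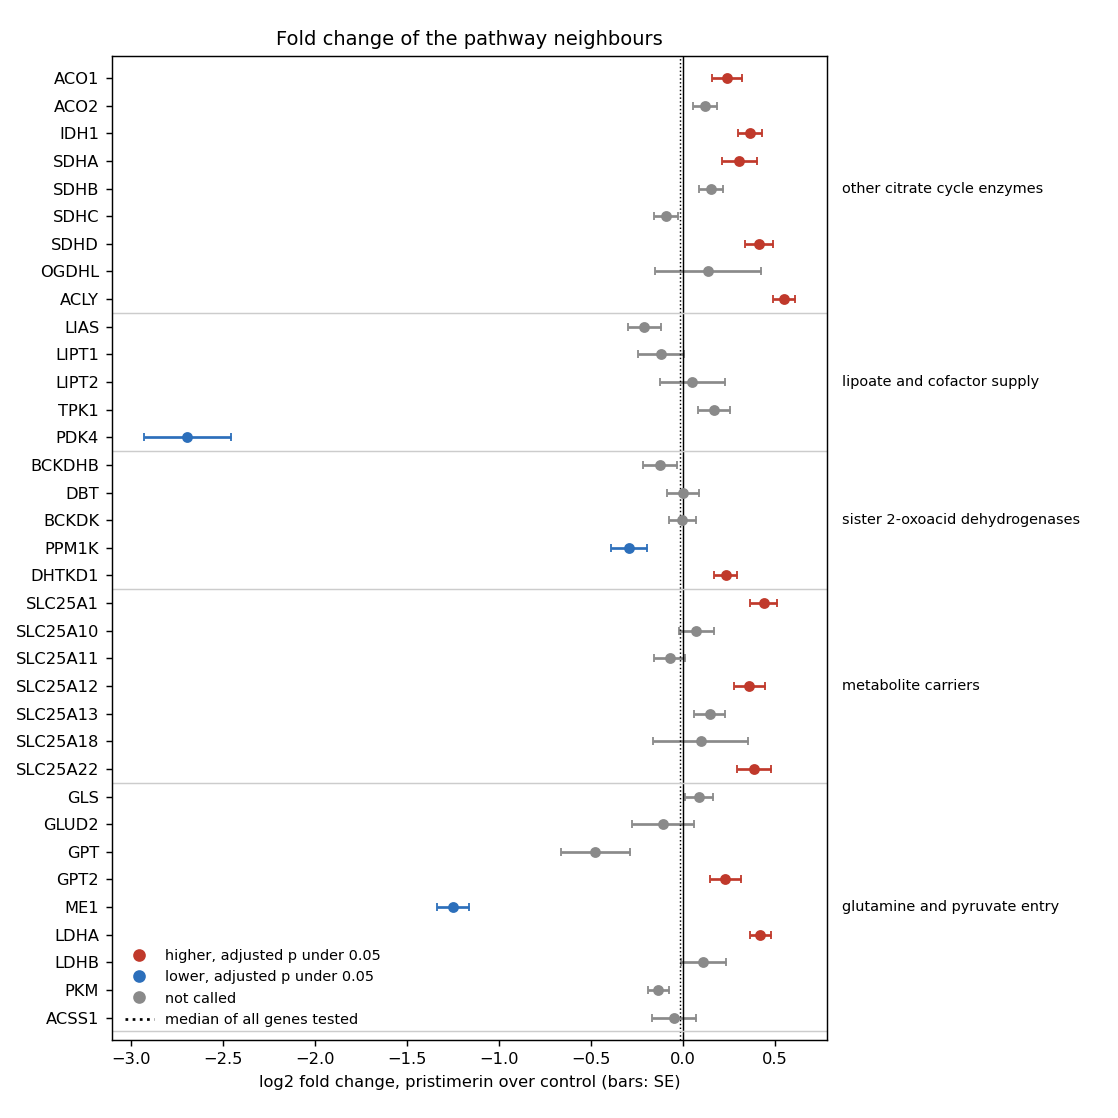
Log2 fold change, pristimerin over control, of the neighbouring genes tested and reported here, with the SE as bars and colour by call, grouped by function. PDK4 (-2.70) and ME1 (-1.25) lie far below the other points, and ACLY (0.55) has the highest value.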

How the data were processed

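THP-1 RNA-seq data were split by the sample descriptions into pristimerin (n = 3) and control (n = 3). Per the labels' protocols, poly(A) RNA was made into dUTP strand-marked paired-end libraries. The submitters' processing notes name hg38, while aligner, counter and strand setting were not found in the labels or headers. The 3 deposited tables hold raw counts and FPKM of 25336 genes, made by the authors. The deposited FPKM follow the counts over a fixed gene length and the column total, and the combined table repeats both with 0 differing values.

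Counts were tested with edgeR 4.0.16 in R 4.3.3 (filterByExpr with a minimum count of 10 and a minimum total of 15, TMM scaling, quasi-likelihood F test, group as the only term, Benjamini-Hochberg adjustment over the 15305 genes kept, threshold 0.05). All 33 members passed the filter. The fit was tried on simulated counts that held no effect of the replicate number. The pass check there covered only changes larger than those of most called members, so it does not vouch for changes of their size. Each SE was derived from the F statistic, as the size of the log2 fold change over the root of F. Replicate pairs differed beyond sampling noise (chi-square over its degrees of freedom 2.62 to 10.6). For levels, 3 counts correspond to 0.0981 to 0.157 CPM.

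Other settings tried were upper-quartile scaling, DESeq2 size factors, library totals, omitting the low-count filter, keeping genes averaging 5 CPM or more, the DESeq2 1.42.0 test, limma-voom (limma 3.58.1), limma on log2(FPKM + 1) and log2(FPKM + 0.1), the replicate number as a block, and leaving out each library. Cyclic loess and leaving out both libraries numbered 2 were added after seeing the data. The members and lists were chosen with earlier results of these data known. Values per library are given for called members whose log2 fold change reached 0.3 in size and for the lead subunit of each complex, and for other members where ranges were of note. Neighbours named by rule are the called ones with the largest changes, up to 3 per list, averaging 5 CPM or more. Named outside this rule are PDK4, which averaged less, and SDHC, BCKDK, DBT, SLC25A11 and SLC25A13, which were not called. Promoters come from RefSeq (GRCh38.p14), and exons and pseudogenes from GENCODE 29. Some items of the lists are counted but not reported by name here. CPM per library are TMM-scaled, and means over all 6 libraries use plain library totals.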

Additional observations from a re-analysis of the deposited data

How the results depend on the processing

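The 20 members that rose became 13 with upper-quartile scaling, 12 with library totals, 9 with limma on log2(FPKM + 1) and on log2(FPKM + 0.1), and 13 with cyclic loess. Leaving out 1 library gave 15 to 20. The 1 member that fell became 2 (PDK2 and PC) with upper-quartile scaling, library totals, no low-count filter, the replicate block and without both libraries numbered 2, and 1 to 2 with 1 library left out. Over all genes, the 2216 that rose became 1392 with library totals, 1081 on log2(FPKM + 1) and 1084 on log2(FPKM + 0.1), and 1742 to 2357 with 1 library left out, while the 2313 that fell became 1534 to 2329, the lowest without control replicate 3. The 12 neighbours that rose became 7 with library totals and 6 on both FPKM scales (8 to 12 with 1 library left out), and the 3 that fell became 6 with upper-quartile scaling, library totals and the replicate block (2 to 3 with 1 library left out). The log2 fold change of PDK3, -0.01, was 0.001 with DESeq2 size factors and in DESeq2, 0.006 without a filter, 0.031 with cyclic loess, 0.005 without both libraries numbered 2, and -0.036 to 0.026 with 1 library left out, turning its sign for 4 of the 6. That of ME2 was -0.009 with library totals, -0.008 on log2(FPKM + 1), -0.009 on log2(FPKM + 0.1) and -0.025 with cyclic loess. The median log2 fold change of all genes tested was -0.0129 in the main fit. It was -0.0728 with upper-quartile scaling and -0.0839 with library totals. TMM factors were 0.9703 to 0.9827 in the pristimerin and 1.0169 to 1.0310 in the control libraries. The cause of the changes in counts and signs was not tested. The labels give same-numbered libraries of the groups only a number in common. Their deviations correlated by 0.098, 0.137 and 0.037, against -0.107 to 0.010 for the other pairs, and each library correlated best with its own number. Whether same-numbered libraries share more than the number was not tested, and the main fit has no term for it. With the replicate block, 24 members rose and 2 fell.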
